A study of Mus musculus with 4 samples.

Results

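The thermogenic genes of brown and beige adipocytes were read in gonadal white adipose tissue (WAT) of male mice on a fat diet (FD) and on a normal diet (ND). They are 10 of the 20239 genes named on the array, taken by gene symbol for their known role, namely Ucp1, Cidea, Cox8b, Cox7a1, Elovl3, Ppargc1a, Ppargc1b, Prdm16, Dio2 and Otop1. The set was chosen with earlier results of these data known. NMRI mice, an outbred stock, were switched at 40 days of age to the FD (18% fat, with sunflower oil) and kept on it for 8 days, whereas ND mice stayed on standard chow (3.3% fat), and all were killed at 48 days. All mice were kept at 22.4 to 22.7 °C. RNA of 3 males was combined into 1 pool for each diet, and each pool was hybridised to 2 Affymetrix mouse gene arrays, so that the arrays of a diet repeat only labelling and hybridisation and no p-value can be given for the diets. The sample titles call the FD a high fat diet.

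Brown adipocytes, and beige adipocytes that arise within white depots, burn fatty acids to produce heat. UCP1 in the inner mitochondrial membrane lets protons return without making ATP, and noradrenaline acting through cAMP releases fatty acids as fuel and switches on the genes of the programme. PRDM16 and the PGC-1 coactivators are regulators of that programme, DIO2 supplies active thyroid hormone within the cell, and visceral depots such as gonadal WAT are known for containing few such cells in mice kept at room temperature.

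Expression values are on the log2 scale, and a difference is the FD mean minus the ND mean. A gene was called higher or lower in FD if this difference reached 0.58, which is 1.5-fold, if both arrays of one diet exceeded those of the other, and if its average over the 4 arrays reached 6. All 10 thermogenic genes passed this level. Of them, 5 were higher in FD, none was lower and 5 were not called, against 1.33% higher and 4.28% lower among all 18211 probe sets at that level. The genes called were Ucp1, Cidea, Cox8b, Cox7a1 and Otop1. The median difference over the 10 genes was 0.55, compared to 0.03 over all probe sets at that level. As the genes were chosen with earlier results known, these contrasts are only a description.

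To show the control regions of the called genes beside their values, the 250 bases upstream of the annotated start are given for the 4 of these 5 genes with an entry in the RefSeq promoter table (GRCm38.p6), and for Dio2 and Ppargc1a as known cAMP-responsive genes that were not called. The table held 7 of the 10 genes. The windows are Ucp1 at chr8:83290098-83290347 on the plus strand, Cox8b at chr7:140900447-140900696 on the minus strand, Cox7a1 at chr7:30183921-30184170 on the plus strand, Otop1 at chr5:38277154-38277403 on the plus strand, Dio2 at chr12:90739039-90739288 on the minus strand and Ppargc1a at chr5:51567726-51567975 on the minus strand. Capitals mark matches on either strand to the cAMP response element TGACGTCA, to its half-site TGACG and to the nuclear receptor half-site AGGTCA, and the full element contains 2 overlapping copies of its half-site.
Ucp1: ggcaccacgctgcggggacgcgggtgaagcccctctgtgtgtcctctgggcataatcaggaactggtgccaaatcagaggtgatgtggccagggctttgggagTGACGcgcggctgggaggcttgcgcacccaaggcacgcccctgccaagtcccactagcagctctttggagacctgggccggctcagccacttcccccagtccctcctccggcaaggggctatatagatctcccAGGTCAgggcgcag
Cox8b: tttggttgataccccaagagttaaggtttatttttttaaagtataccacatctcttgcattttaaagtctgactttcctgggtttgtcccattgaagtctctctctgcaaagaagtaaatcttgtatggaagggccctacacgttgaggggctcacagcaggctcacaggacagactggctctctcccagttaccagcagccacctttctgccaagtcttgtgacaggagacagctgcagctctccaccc
Cox7a1: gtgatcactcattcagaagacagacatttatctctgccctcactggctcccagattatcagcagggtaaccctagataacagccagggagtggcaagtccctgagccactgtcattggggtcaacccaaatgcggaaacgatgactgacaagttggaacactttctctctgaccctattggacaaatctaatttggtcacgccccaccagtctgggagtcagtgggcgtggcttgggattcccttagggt
Otop1: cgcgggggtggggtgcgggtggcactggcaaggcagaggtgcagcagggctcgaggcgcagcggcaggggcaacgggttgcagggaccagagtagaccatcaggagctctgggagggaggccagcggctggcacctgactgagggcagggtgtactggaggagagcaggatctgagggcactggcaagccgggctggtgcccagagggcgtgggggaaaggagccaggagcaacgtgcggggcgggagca
Dio2: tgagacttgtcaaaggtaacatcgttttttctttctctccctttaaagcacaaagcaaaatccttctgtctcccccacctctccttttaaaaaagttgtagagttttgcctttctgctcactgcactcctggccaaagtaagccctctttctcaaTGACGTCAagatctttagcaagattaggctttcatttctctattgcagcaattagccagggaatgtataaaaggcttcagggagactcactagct
Ppargc1a: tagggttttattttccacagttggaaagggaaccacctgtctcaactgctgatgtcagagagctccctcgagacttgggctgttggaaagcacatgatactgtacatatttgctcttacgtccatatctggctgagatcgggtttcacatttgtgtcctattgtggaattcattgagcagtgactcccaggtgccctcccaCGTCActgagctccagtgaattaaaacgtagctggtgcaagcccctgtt

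Counted back from the start site, with -1 as the base before it, Ucp1 had 1 TGACG with its first base at -147 and 1 AGGTCA at -14. Dio2 had the full TGACGTCA at -95. Ppargc1a had 1 TGACG on the reverse strand, printed here as CGTCA with the C at -49. Cox8b, Cox7a1 and Otop1 had no match in this window. Of 32851 promoters of the table, 1.55% held TGACGTCA, 17.8% held TGACG and 14.0% held AGGTCA in the same 250 bases. These matches are a description of letters and not of binding. For each printed gene only 1 window was searched, so other start sites and more distant regions are not covered.

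Ucp1, the uncoupling protein itself, had the largest difference of the 10 genes. It was at 8.57 and 8.76 on the FD arrays and at 6.57 and 6.47 on the ND arrays. Both FD arrays lay 2.00 or more above both ND arrays, and the duplicates differed by 0.19 in FD and by 0.10 in ND. The means were 8.67 ± 0.13 in FD and 6.52 ± 0.07 in ND (SD, n = 2 arrays of 1 pool each), a log2 difference of 2.15 or 4.43-fold higher expression in FD. This was the 4th largest positive difference among the 18211 probe sets, after those of Alb, Serpina1c and Ahsg, which belong to the liver markers below. In bulk tissue, more cells that express a gene and more of its RNA per cell cannot be told apart.

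Cidea, which encodes a lipid droplet protein abundant in mouse brown adipocytes, followed with 8.80 and 8.81 in FD and 7.61 and 7.75 in ND. The FD duplicates differed by 0.02 and the diets were apart by at least 1.05. Cidea was thus higher in FD by 1.13 or 2.18-fold, with means of 8.81 ± 0.01 in FD and 7.68 ± 0.09 in ND (SD, n = 2 arrays each), and 26 probe sets, Cidea included, had a difference at least as high.

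Cox8b and Cox7a1 encode the isoforms of cytochrome c oxidase subunits that are typical of heart, skeletal muscle and brown adipose tissue. Cox8b was at 8.63 and 8.62 in FD and at 7.38 and 7.80 in ND, a difference of 1.03 or 2.05-fold between means of 8.62 ± 0.01 in FD and 7.59 ± 0.30 in ND. Cox7a1 was at 9.43 and 9.51 in FD and at 8.61 and 8.94 in ND, a difference of 0.69 or 1.62-fold between means of 9.47 ± 0.05 in FD and 8.78 ± 0.23 in ND. For both genes the FD arrays lay above the ND arrays, by at least 0.81 for Cox8b and 0.49 for Cox7a1, and the ND duplicates differed more than the FD duplicates, by 0.42 against 0.01 between FD arrays for Cox8b and by 0.33 against 0.08 for Cox7a1.

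Otop1, which encodes a proton channel that is expressed in mouse brown adipose tissue, was at 8.23 and 8.07 in FD and at 7.33 and 7.71 in ND. The means were 8.15 ± 0.12 in FD and 7.52 ± 0.27 in ND. The difference of 0.63 or 1.55-fold was the smallest of those called, with a gap of 0.35 between the diets and 0.38 between the ND duplicates. Elovl3, an elongase of very long chain fatty acids that is induced by cold in mouse brown adipose tissue, was at 6.48 and 6.64 in FD and at 5.89 and 6.29 in ND. Its difference of 0.47 did not reach 1.5-fold, although the FD arrays lay above the ND arrays by at least 0.19.

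**Figure D1:**
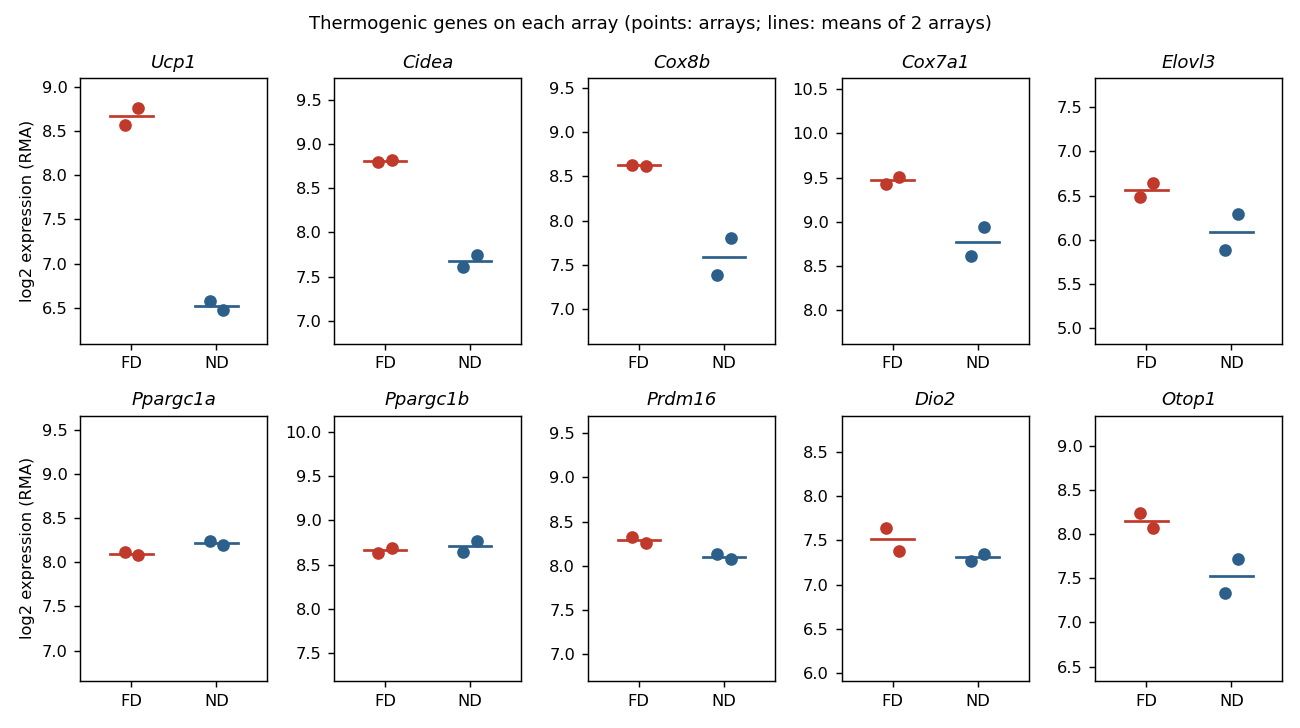
log2 expression of the 10 thermogenic genes on each array, with FD arrays in red on the left and ND arrays in blue on the right of each panel, lines at the means of 2 arrays and an axis of the same length in every panel. The gap between the diets is widest for Ucp1, Cidea and Cox8b, at 2.00, 1.05 and 0.81, and it exceeds the distance between the duplicates of either diet for these genes and for Cox7a1, Prdm16 and Ppargc1a, at 0.49, 0.12 and 0.08.

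The regulators of the programme were not called. Prdm16, the transcription cofactor that sets brown adipocyte identity, was at 8.32 and 8.26 in FD and at 8.13 and 8.07 in ND, a difference of 0.19. Ppargc1a, the coactivator PGC-1α of mitochondrial biogenesis, was at 8.11 and 8.08 in FD and at 8.24 and 8.20 in ND, a difference of -0.12. Its paralog Ppargc1b was at 8.63 and 8.69 in FD and at 8.65 and 8.77 in ND, a difference of -0.05, and it was the only one of the 10 genes whose diets overlapped. The sign of Ppargc1b is not settled, since it was 0.015 without ND array 2 and close to 0 with each array centred on its median. Dio2, the deiodinase that makes T3 from T4, was at 7.64 and 7.38 in FD and at 7.27 and 7.35 in ND, a difference of 0.20 that was smaller than the 0.25 between its FD duplicates.

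FD lay above ND on all arrays for 8 of the 10 genes and below it for 1, Ppargc1a, compared to 36.3% of all probe sets above and 27.2% below. Thus 3 genes with separated arrays and a positive difference, Elovl3, Prdm16 and Dio2, stayed under 1.5-fold. The central 95% of differences over all probe sets ran between -0.87 and 0.48. Its upper end is under the threshold of 0.58, so any gene called higher lies above this range by the rule.

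**Figure D2:**
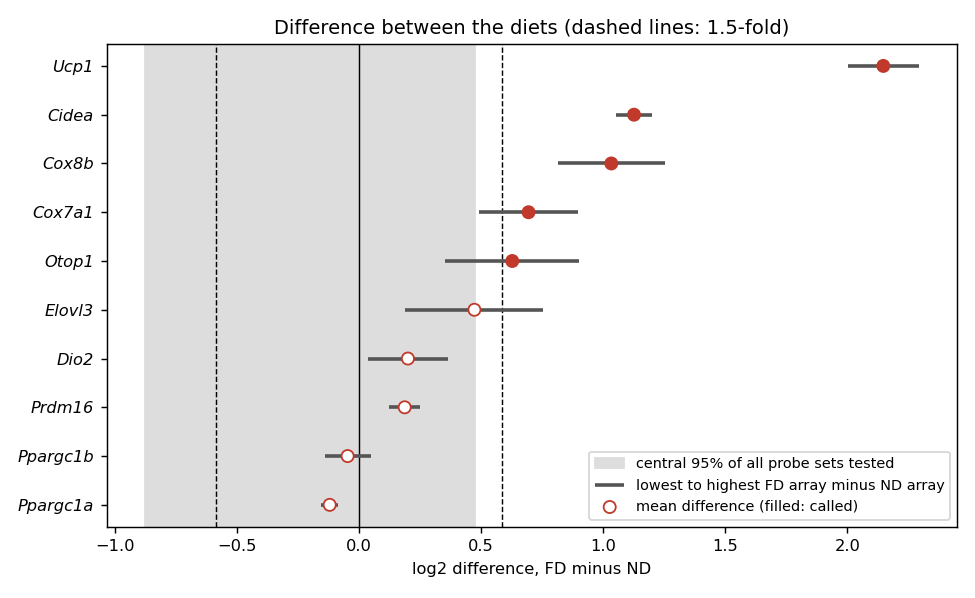
log2 difference between FD and ND for each of the 10 genes, with bars from the lowest to the highest difference of any FD array and any ND array, dashed lines at 1.5-fold and a grey band for the central 95% of all probe sets. Ucp1 stands apart at 2.15, Cidea and Cox8b lie near 1, and the bars of Cox7a1, Otop1 and Elovl3, which was not called, cross the 1.5-fold line.

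The ND duplicates of 4 genes were far apart in the same direction, which bears on the size of the differences. ND array 2 lay above ND array 1 by 0.42 for Cox8b, 0.40 for Elovl3, 0.38 for Otop1 and 0.33 for Cox7a1, compared to a median distance between ND duplicates of 0.10 over all probe sets. Distances as large were found in 2.09%, 2.51%, 3.06% and 4.95% of the probe sets. Without ND array 1, only Ucp1, Cidea and Cox8b were called, Cox7a1 was at 0.53 and Otop1 at 0.44, and the median over the 10 genes was 0.35. Without ND array 2, Elovl3 at 0.68 joined the 5 called genes and the median was 0.75. Without FD array 1, Otop1 was at 0.54 and 4 genes were called.

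Next, each thermogenic gene was set beside its paralogs, of which 20 were measured, with 1 higher, 2 lower and 17 not called. Ucp3, the uncoupling protein typical of skeletal muscle that is also expressed in mouse brown fat, was at 8.91 and 8.82 in FD and at 8.12 and 8.02 in ND, a difference of 0.79. Ucp2 is not among the paralogs measured here. Cidec, the lipid droplet protein of white adipocytes, had a difference of 0.28 and Cideb of -0.16. The ubiquitous isoform Cox8a was at 11.65 and 11.52 in FD and at 11.60 and 11.75 in ND, and its difference of -0.09 contrasts with that of 1.03 for Cox8b. Cox7a2 had a difference of 0.05 and the related Cox7a2l of -0.32. Cox8c, which is not counted in the 20 but with the tissue-restricted subunits below, had a difference of -0.11. Elovl2, an elongase of polyunsaturated fatty acids, was lower at 6.54 and 6.61 in FD against 8.47 and 8.36 in ND, a difference of -1.84. Elovl6, an elongase in fatty acid synthesis, was lower by a difference of -0.61 and was no longer called without ND array 2 (-0.49). Elovl1, Elovl4, Elovl5 and Elovl7 had differences of 0.03, 0.16, 0.17 and -0.38. Otop2 was at 7.97 and 7.98 in FD and at 7.57 and 7.47 in ND, a difference of 0.45, and Otop3 had one of -0.02. The PGC-1 relative Pprc1 had a difference of 0.15, Mecom, the paralog of Prdm16, of 0.38, and Dio3, which inactivates thyroid hormone, of -0.09. Dio1 was under the level of 6, with a difference of 0.08, and the mitochondrial carriers Slc25a14, Slc25a27 and Slc25a30 had differences of -0.19, 0.10 and -0.29. Probes of close paralogs may pick up each other's transcripts, which was not tested.

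**Figure D3:**
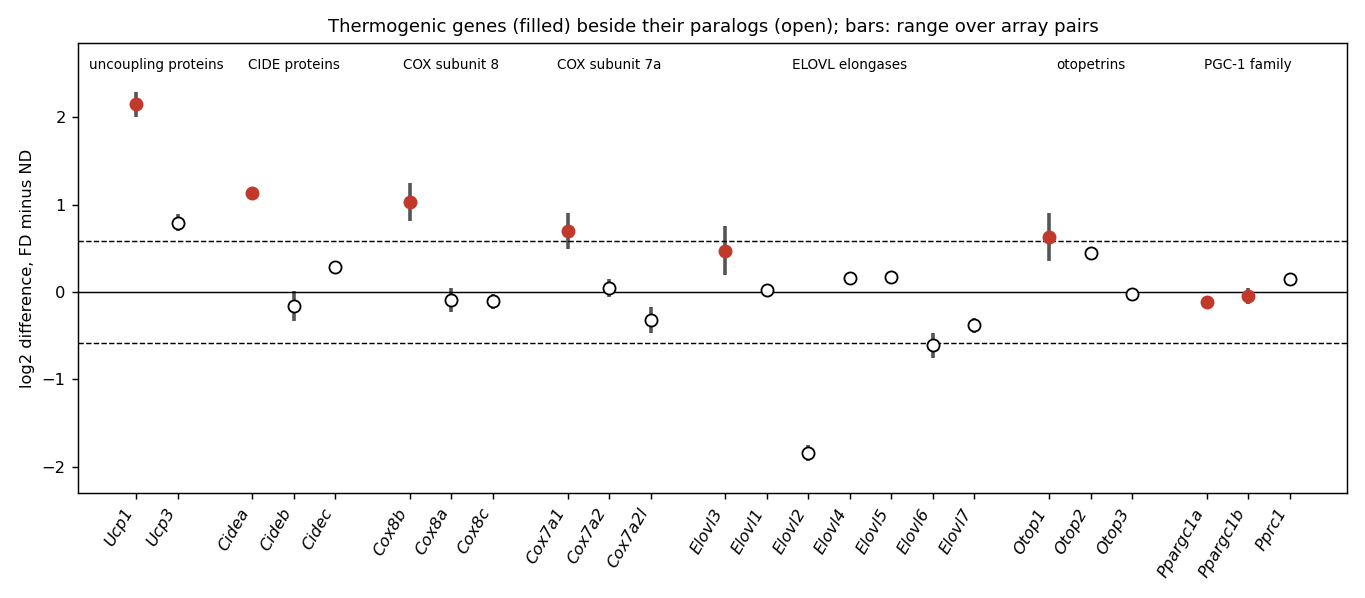
log2 difference between FD and ND for thermogenic genes (filled) and their paralogs (open) in 7 gene families, with bars over all pairs of an FD and an ND array and dashed lines at 1.5-fold. Ucp1, Cidea, Cox8b and Cox7a1 lie above every paralog shown in their own family, and Elovl2 lies far below Elovl3 at -1.84.

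Among subunits of cytochrome c oxidase, the last complex of the respiratory chain, none of 11 measured ubiquitous subunits was called, and their median difference was -0.09. Cox7a2l, Cox6c and Cox4i1 had the differences farthest from 0, at -0.32, -0.27 and -0.26. Of 6 measured tissue-restricted subunits, 2 were higher, which are Cox8b and Cox7a1 themselves. Cox4i2, an isoform of subunit 4 known from lung and from oxygen sensing, was at 9.21 and 9.08 in FD and at 8.70 and 8.75 in ND, a difference of 0.42, while Cox6b2 had one of 0.02 and Cox6a2, the subunit typical of heart and skeletal muscle, of -0.01. For mitochondrial biogenesis, none of 14 measured genes was called and the median was -0.01. The single-stranded DNA binding protein Ssbp1 had a difference of -0.36, the mitochondrial transcription factor Tfam of -0.28 and the mitochondrial DNA polymerase Polg of 0.23.

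Of 17 measured transcription regulators of brown and beige adipocytes, none was higher and 1 was lower, with a median difference of 0.14. The lower gene was Plac8, needed for Cebpb expression in mouse brown fat, at 8.72 and 8.69 in FD and at 9.47 and 9.68 in ND, a difference of -0.87. Klf11, Gata6 and Hlx had differences of 0.40, 0.39 and 0.36, which did not reach 1.5-fold. Of 12 measured negative regulators of thermogenic genes, none was called (median 0.17). Trpv4, a calcium channel, had a difference of -0.49 (-0.59 and called without ND array 2), Hoxc10 of 0.48 and the retinoblastoma gene Rb1 of 0.25.

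Markers that separate classical brown from beige adipocytes were mostly not called. Of 11 measured genes listed for classical brown adipocytes, 1 was higher, 1 was lower and 9 were not called (median 0.14). Zic1 was at 6.39 and 6.19 in FD and at 6.08 and 6.25 in ND, so that the diets overlapped close to the level of 6. Lhx8 was at 6.56 and 6.47 in FD and at 6.40 and 6.36 in ND, a difference of 0.14. The higher gene was Meox2, a homeobox gene of mesoderm, with a difference of 0.63 that was under the threshold without ND array 1 (0.54). The lower one was Mpzl2, an adhesion protein also found in epithelia, at 9.58 and 9.66 in FD against 10.71 and 10.78 in ND. Ebf3 and Pdk4 had differences of 0.41 and 0.28. Eva1a, with a difference of 0.21, is counted in the 11 but is a separate gene from Mpzl2, whose older name is Eva1. Of 10 measured beige markers none was called (median 0.12), with Cited1 at a difference of -0.43, Aqp7 at 0.42 and Sp100 at 0.27. Aqp7 is also counted among the general adipocyte markers below.

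Among other thermogenic effectors, such as the creatine and calcium cycles, 2 of 21 measured genes were higher and none was lower (median 0.07). They were Ucp3 and Cpt1b, the isoform of carnitine palmitoyltransferase in muscle and brown fat that admits fatty acids to mitochondria. Cpt1b was at 8.12 and 7.68 in FD and at 7.28 and 7.25 in ND, a difference of 0.63 that was 0.42 without FD array 1 and then not called. Kcnk3, Slc29a1 and Ntrk3 had differences of 0.29, 0.25 and -0.25. Of 20 measured genes of fatty acid supply and oxidation, 1 was higher, none was lower and the median was 0.18. It was Gpd1, glycerol-3-phosphate dehydrogenase, at 12.85 and 12.87 in FD and at 12.21 and 12.28 in ND, a difference of 0.61 (0.58 without ND array 1, just under the threshold). Pck1, Gpd2 and Mgll had differences of 0.40, 0.29 and 0.27.

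In the adrenergic and cAMP cascade that activates thermogenesis, none of 19 measured genes was called (median 0.05), and the adrenergic receptors of the list were not analysed here. The adenylate cyclase Adcy4 was at 9.70 and 9.79 in FD and at 9.25 and 9.13 in ND, a difference of 0.56 that passed the threshold without FD array 1 (0.60) or ND array 1 (0.62). The kinase gene Sik1 and Adcy3 had differences of 0.44 and 0.40. Of 10 measured secreted factors made by or acting on brown fat, none was called (median 0.12). Nrg4, a factor released by brown adipocytes, was at 11.79 and 11.70 in FD and at 11.08 and 11.33 in ND, a difference of 0.54, and was called without ND array 2 (0.67) or FD array 2 (0.59). Angptl4 had a difference of 0.45 and Slit2 of -0.48.

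**Figure D4:**
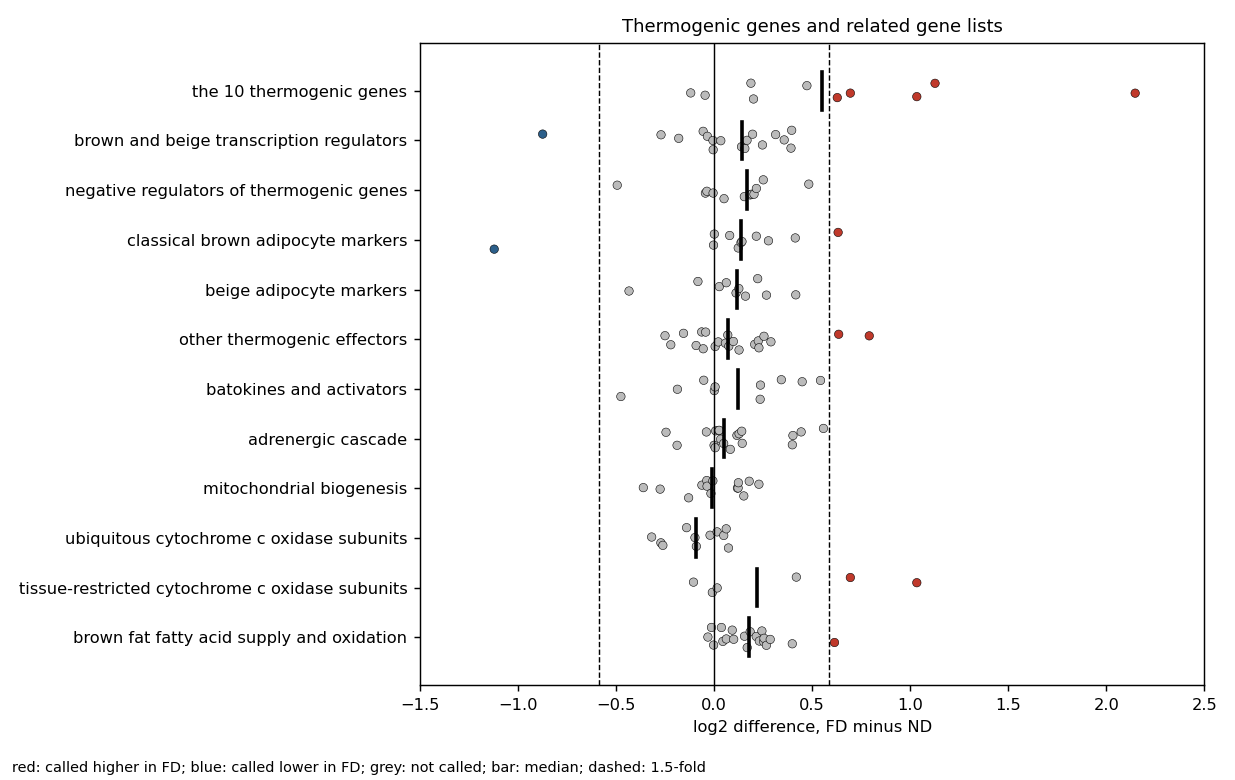
log2 difference between FD and ND of every measured gene in the thermogenic set and in the related lists, with medians as bars and dashed lines at 1.5-fold, red for genes called higher and blue for genes called lower in FD. The 10 thermogenic genes have a median of 0.55, and the other lists have medians between -0.09 and 0.18, except the tissue-restricted cytochrome c oxidase subunits at 0.22, a list that includes Cox8b and Cox7a1 and is at 0.015 with no filter on the level.

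The pools also differed in genes of other cell types, and their part in the thermogenic differences was not tested. All 16 adipocyte markers on the array were measured above the level of 6, and none was called (median 0.10), with a log2 of the summed level of 17.22 and 17.19 in FD and 17.06 and 17.13 in ND. Adiponectin (Adipoq) was at 13.46 and 13.45 in FD and at 13.25 and 13.54 in ND. Skeletal and heart muscle also express Cox8b, Cox7a1, Cpt1b and Ucp3. Of 18 measured skeletal muscle markers, none was called higher in FD and 3 were lower. A positive difference was found for 11, up to 0.31 for Actn3 and 0.30 for Myh1, against 56.5% of all probe sets. FD lay above ND on all arrays for 7 and below it for 4, against 36.3% and 27.2% of all probe sets. The 3 genes called lower were Acta1, Tnnc2 and Casq1 with differences of -0.71, -0.61 and -0.61. Of these, Casq1 and Tnnc2 were not called when single arrays were left out (down to -0.49 for Casq1 and -0.48 for Tnnc2). The log2 of the summed levels of the 18 markers was 12.72 and 12.71 in FD and 12.88 and 12.93 in ND. None of 10 heart markers was called (median 0.04), with Tnnt2 at -0.39 and summed levels of 11.01 and 10.98 in FD and 10.96 and 10.99 in ND on the log2 scale.

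Genes of liver and epididymis, an organ next to the gonadal depot, had the largest differences of these lists. Of 15 measured liver markers 12 were higher in FD, led by Alb, Serpina1c and Ahsg with differences of 4.14, 3.02 and 2.25. The log2 of the summed level of the list was 14.69 on both FD arrays and 14.26 and 14.35 on the ND arrays. Much of this sum is Cyp2e1, the highest gene of the list, which was not called, at 13.88 and 13.86 in FD and 14.02 and 14.12 in ND. Of 14 measured epididymis markers 11 were lower in FD, among them Adam7, Defb22 and Rnase9, which were under 6 in FD, and the log2 of the summed level was 12.37 and 12.31 in FD and 15.01 on both ND arrays. Mesothelial markers were higher for 6 of 10 genes, with Msln, Upk1b and Upk3b at differences of 1.25, 1.10 and 1.07 and summed levels of 13.58 and 13.56 in FD and 12.76 and 12.92 in ND on the log2 scale. Fibroblast and matrix genes were higher for 6 of 12, with Thy1, Col5a2 and Col6a3 at 0.79, 0.75 and 0.74 and summed levels of 15.995 and 15.998 in FD and 15.579 and 15.576 in ND. Macrophage markers were higher for 2 of 12 (Lyz1 at 1.10 and Itgam at 0.64), with sums of 13.91 and 13.90 in FD and 13.46 and 13.64 in ND. Endothelial markers were higher for 1 of 10 (Robo4 at 0.72), with sums of 14.37 on both FD arrays and 14.01 and 14.11 on the ND arrays. Of 10 kidney and adrenal markers 1 was lower, Lrp2 at -2.24, and of 8 germ cell markers 1 was lower, Odf1 at -1.44. As each diet is 1 pool, diet and tissue composition of the pool cannot be told apart.

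**Figure D5:**
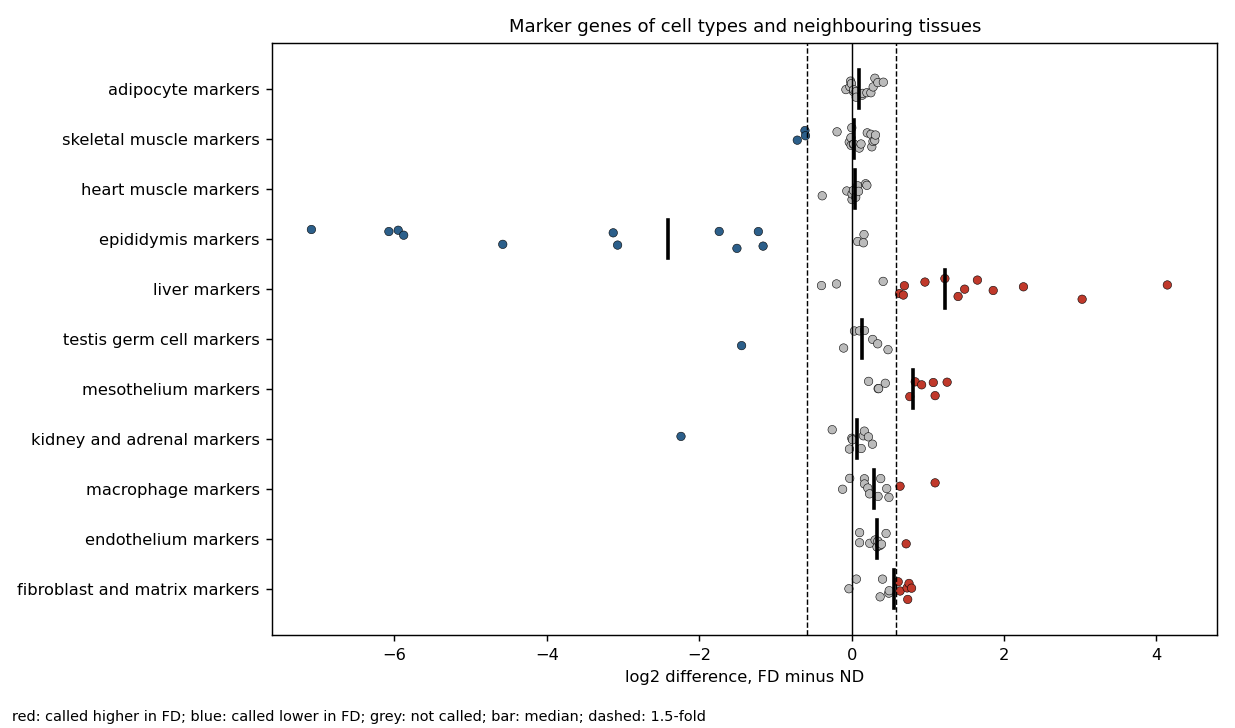
log2 difference between FD and ND of measured marker genes of cell types and neighbouring tissues, with medians as bars, red for genes called higher and blue for genes called lower in FD. Skeletal muscle, heart and adipocyte markers have medians of 0.03, 0.04 and 0.10, while liver markers have 1.22, mesothelial markers 0.80 and epididymis markers -2.40.

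Finally, the named genes whose 4 array values were most like those of each called gene were listed by Euclidean distance, after each gene was centred on its own mean. With 2 pools this measure mostly ranks genes by the size of their difference. Nearest to Ucp1 were Ahsg, Serpina1b, Ttr, Pzp and Mug1, at distances of 0.29 to 0.70, all of them genes of proteins that liver secretes. Cidea was followed most closely by Pcolce2, Upk1b, Gabra3, Upk3b and Lyz1, at 0.02 to 0.10, and Cox8b by the clock output gene Dbp, then Ambp, Lyz1, Fstl1 and Mfap5, at 0.08 to 0.15. Nearest to Cox7a1 were the clock gene Bhlhe41, Fam83a, Agk, Mettl7b and Cyp2d26, at 0.05 to 0.09, and to Otop1 S100a6, Sult2a4, Ada, C1qc and Cd300ld4, at 0.08 to 0.11. Between the called genes themselves, the distance was 0.19 for Cox7a1 and Otop1, 0.23 for Cidea and Cox8b and 1.04 for Ucp1 and Cidea.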

How the data were processed

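RNA of gonadal WAT was measured on 4 arrays, 2 for FD and 2 for ND. The deposited values are log2 expression values that the authors made with RMA (background correction, quantile normalization and summary of each probe set; software not given in the sources used here). No further normalization was applied. Of 21225 probe sets, 20239 carry 1 gene symbol, all matched to RefSeq (GRCm38.p6) by Entrez gene number, and 986 are unnamed here. Array medians lay between 8.11 and 8.19, and of the probe sets at a mean of 6 or more, 242 were higher and 780 lower in FD. Arrays have no sequencing depth, and their number limits the precision. Calling was tried on simulated data whose noise was taken from the spread between duplicate arrays. That noise holds no variation between mice or pools, so the simulation cannot show how often the rule errs between the diets. No p-value was computed, since the duplicates share 1 RNA pool.

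The 10 genes and all gene lists were chosen with earlier results of these data known. The text names these genes, their paralogs, the called genes and up to 3 further genes with the largest differences of each related list, up to 3 genes of each marker list and the 5 genes most like each called gene. Adipoq, Zic1, Lhx8, Cox6a2, Actn3, Myh1 and Cyp2e1 were named besides these, after their values were seen. Alternatives were no filter, a filter at 7, 1.3-fold and 2-fold thresholds, centring on array medians or on the adipocyte markers, cyclic loess (limma 3.58.1 in R 4.3.3), values under 6 set to 6 and leaving out each array. Motifs and figures were made in Python 3.11.15.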

Additional observations from a re-analysis of the deposited data

How the results depend on the processing

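No member of the thermogenic set was called lower in FD under any alternative, and Ucp1, Cidea and Cox8b were called higher under all those run. Over normalizations, the floor and the arrays left out, the difference of Ucp1 ran between 2.01 and 2.24, of Cidea between 0.99 and 1.19 and of Cox8b between 0.82 and 1.25. The count of called genes was 3 with the 2-fold threshold, without Cox7a1 (0.69) and Otop1 (0.63), and 3 with the arrays centred on the adipocyte markers, which moved the median of all probe sets to -0.11 and put Cox7a1 at 0.56 and Otop1 at 0.49. Under that centring 122 probe sets were higher and 1095 lower, or 10.02% of calls higher, against 23.7% for the values as deposited. Otop1 was at 0.58, just under the threshold, with cyclic loess. Elovl3 (0.47) was called at 1.3-fold. At that threshold 869 probe sets were higher and 1333 lower, and at 2-fold 41 and 386. With 1 array left out, the count ran between 3 and 6, the median over the 10 genes between 0.35 and 0.75, Cox7a1 between 0.53 and 0.86, Otop1 between 0.44 and 0.82 and Elovl3 between 0.27 and 0.68. Ppargc1b ran between -0.11 and 0.015 with 1 array left out and was at 4.02e-05 with the arrays centred on their medians. List medians near 0 changed sign. Paralogs were at -0.030 with cyclic loess, -0.13 with the adipocyte centring and between -0.028 and 0.0045 with 1 array left out. Skeletal muscle was at -0.0075 with the filter at 7, -0.047 with cyclic loess and -0.11 with the adipocyte centring, kidney and adrenal markers at -0.0096 and -0.067 under these 2 normalizations, and other thermogenic effectors at -0.066 under the adipocyte centring. That centring also put beige markers at -0.017, secreted factors at -0.016, the adrenergic cascade at -0.087 and adipocyte markers at -0.036. Over all alternatives, heart markers ran between -0.097 and 0.12 and mitochondrial biogenesis between -0.15 and 0.056. The tissue-restricted cytochrome c oxidase subunits were at 0.015 with no filter. Epididymis markers were at -1.62 with no filter and at -3.13 with the filter at 7, against -2.40 at the level of 6. The causes were not tested. No paired analysis was possible because the replicate numbers only count technical duplicates of 1 RNA pool per diet and no test was made. Signal near the level of 6, as for Ucp1 in ND and Elovl3 in both diets, limits how exactly a fold is known.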
